A study of Homo sapiens with 47 samples.

Results

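Of the 1006 microRNA (miRNA) entries in the count table of this study, 9 were grouped as resembling pieces of other RNA classes. They are hsa-miR-1260a, hsa-miR-1260b, hsa-miR-4454, hsa-miR-4461, hsa-miR-4485-3p, hsa-miR-4521, hsa-miR-3609, hsa-miR-7974 and hsa-miR-1290. They were taken by name and are described in all 47 small RNA libraries of the human prostate cancer lines PC-3 and 22Rv1. An entry was tested where at least 2 libraries of the line reached 5 CPM, the usual unit of read counts scaled to library size. Of the 9 entries, 7 passed this filter in PC-3, where miR-4485-3p and miR-1290 did not, and 9 passed in 22Rv1. In 22Rv1, miR-4485-3p passed only through 4 hypoxia libraries and miR-1290 only through the 2 libraries at 0% O2. In the same line, miR-4461 reached 5 CPM of the library total in 7 normoxia libraries and 1 hypoxia library. For these 3 entries, passing the filter in 22Rv1 therefore depended on the condition in which they were high.

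PC-3 is labelled as coming from a bone metastasis, and 22Rv1 as a primary tumour line from a subline of the xenograft CWR22R. Both were grown in RPMI-1640 with 10% serum, antibiotics and glutamine. The treated groups were PC-3 and 22Rv1 cultures exposed to low oxygen during 24 h, at levels of 0, 0.2, 0.5 and 1% O2 and of 2 and 5% O2. Each of these 12 groups was set against its own normoxia control (95% air) of the same line. Every group had 2 libraries, except the 22Rv1 control of the 0.2% level, of which 1 was analysed here. The labels give no genetic change or drug treatment in any group. The hypoxia treatments were made in duplicate, but the labels do not say that all libraries came from separate cultures. The p-values below therefore measure the spread between these libraries, which may be technical.

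Mature miRNAs are cut from hairpin precursors by Drosha and Dicer and guide Argonaute proteins to messenger RNAs through the seed, bases 2 to 8. Small RNA libraries also hold fragments of transfer RNA (tRNA), ribosomal RNA, small nuclear RNA and small nucleolar RNA, and some entries of miRNA catalogues match such fragments. Mature tRNAs end in CCA, added after transcription, and pieces of their 3′ ends carry it. The trailer that RNase Z (ELAC2) cuts from a tRNA precursor is a further source of small RNA.

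Mature sequences were in the RefSeq table (GRCh38.p14) for 7 of the 9 entries and for 868 of the 1006 entries of the count table. All 7 are shown, because the resemblance to other RNAs is in their letters. Capitals mark the seed, and sequences run 5′ to 3′.
miR-1260a: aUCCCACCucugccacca
miR-1260b: aUCCCACCacugccaccau
miR-4454: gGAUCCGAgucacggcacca
miR-4521: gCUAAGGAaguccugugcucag
miR-4485-3p: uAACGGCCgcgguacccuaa
miR-1290: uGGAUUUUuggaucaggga
miR-7974: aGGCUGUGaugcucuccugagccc
miR-1260a and miR-1260b share the seed UCCCACC, which no other of the 868 entries has. The other 5 seeds were each found in 1 entry only.

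miR-1260a (chr14:77266231-77266248, plus strand) lies opposite the neuroglobin gene NGB, and miR-1260b (chr11:96341447-96341465, plus strand) lies opposite MAML2. They differ by U9A, counted from the 5′ end of miR-1260a, and miR-1260b has 1 base more. As background, both resemble the 3′ end of leucine tRNAs and miR-4454 resembles the 3′ end of histidine tRNA. miR-4454 (chr4:163093607-163093626, minus strand) overlaps no other annotated gene. The letters CACCA, searched on the RNA strand within the last 6 bases, occurred in these 3 of the 7 entries with a sequence and in 6 of the 868 entries (0.691%). miR-4521 (chr17:8186948-8186969, plus strand) comes from a hairpin that overlaps the serine tRNA gene TRS-GCT4-3 by 3 bases in RefSeq. As background, it has been described as the trailer of a serine tRNA precursor.

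miR-4485-3p (chr11:10508277-10508296, minus strand) lies within MTRNR2L8, a nuclear copy of mitochondrial 16S ribosomal RNA. Its letters are also found unchanged in MT-RNR2, the mitochondrial 16S ribosomal RNA itself, and in MTRNR2L12. Reads of these genes and of miR-4485-3p cannot be told apart by sequence. miR-4461 (hairpin chr5:134928039-134928112, plus strand) lies within PCBD2 and opposite MTND4LP30, a pseudogene of the mitochondrial complex I gene ND4L. miR-1290 (chr1:18897078-18897096, minus strand), within ALDH4A1, differs by 1 base from a stretch of U2 small nuclear RNA, a core part of the spliceosome. The difference is U13G, counted from the 5′ end of miR-1290, and it is shown in capitals in the U2 stretch (RNU2-1, chr17:43233787-43233977, minus strand, bases 96 to 114 of the transcript).
RNU2-1: uggauuuuuggaGcaggga
In GENCODE 29, 12 U2 genes or pseudogenes hold a stretch that is 1 substitution away from miR-1290. miR-3609 (hairpin chr7:98881650-98881729, plus strand) lies in TRRAP and overlaps the small Cajal body RNA SCARNA28 by 33 bases. miR-7974 (chr19:11495544-11495567, minus strand) lies in the zinc finger gene ZNF653. No match to another small RNA was found for it in GENCODE 29 transcripts with at most 1 substitution. The same search found no tRNA match for miR-1260a, miR-1260b, miR-4454 or miR-4521 either. The RNA types that it compared with 1 substitution did not include nuclear tRNAs. The search therefore cannot show whether miR-7974 resembles a tRNA. miR-7974 is among the 9 through the grouping by name.

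The 12 PC-3 hypoxia libraries held 1854859 to 3080482 counts and the 12 PC-3 normoxia libraries 1742290 to 4327382. The 12 22Rv1 hypoxia libraries held 1035470 to 3181344 counts and the 11 22Rv1 normoxia libraries 960421 to 3134769. Markers fitted the labels of the lines: miR-221-3p averaged 14646 CPM in PC-3 and 19.3 CPM in 22Rv1, and miR-200c-3p 23.9 CPM in PC-3 and 21676 CPM in 22Rv1. The hypoxia marker miR-210-3p was higher in hypoxia by log2 0.70 in PC-3 (adjusted p = 1.05e-07) and by log2 1.01 in 22Rv1 (2.8e-09). Along the first principal component of each line, 5 libraries stood apart. They were replicate 1 at 5% O2 and its control in both lines and replicate 1 at 0.5% O2 in 22Rv1. miR-143-3p, a smooth muscle and stroma marker, reached 1446 CPM in 1 PC-3 library and 479 CPM in 1 22Rv1 library, against line means of 133 and 135 CPM. The other listed markers of that kind had no such peak. miR-145-5p reached at most 7.79 CPM in PC-3 and 3.73 CPM in 22Rv1, and miR-199a-3p at most 15.6 and 26.9 CPM. The red blood cell miRNA miR-451a stayed between 0 and 5.75 CPM in all libraries. Of the other blood or serum markers, miR-144-3p reached at most 1.40 CPM and miR-122-5p at most 10.2 CPM. miR-486-5p went the other way, with a mean of 307 CPM in PC-3 (219 to 397) and 1583 CPM in 22Rv1 (797 to 2641).

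Together the 9 entries took a small part of each library. Their summed share of counts was 0.0823 to 0.167% (median 0.117%) in PC-3 hypoxia and 0.112 to 0.174% (median 0.126%) in PC-3 normoxia. It was 0.0471 to 0.143% (median 0.107%) in 22Rv1 hypoxia and 0.111 to 0.164% (median 0.155%) in 22Rv1 normoxia. miR-7974 held the highest mean level of the 9 in both lines, and miR-4461, miR-4485-3p and miR-1290 stayed at 13.5 CPM or less in every library. In these pools of cells, fewer cells with a fragment and less of it per cell cannot be told apart.

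**Figure D1:**
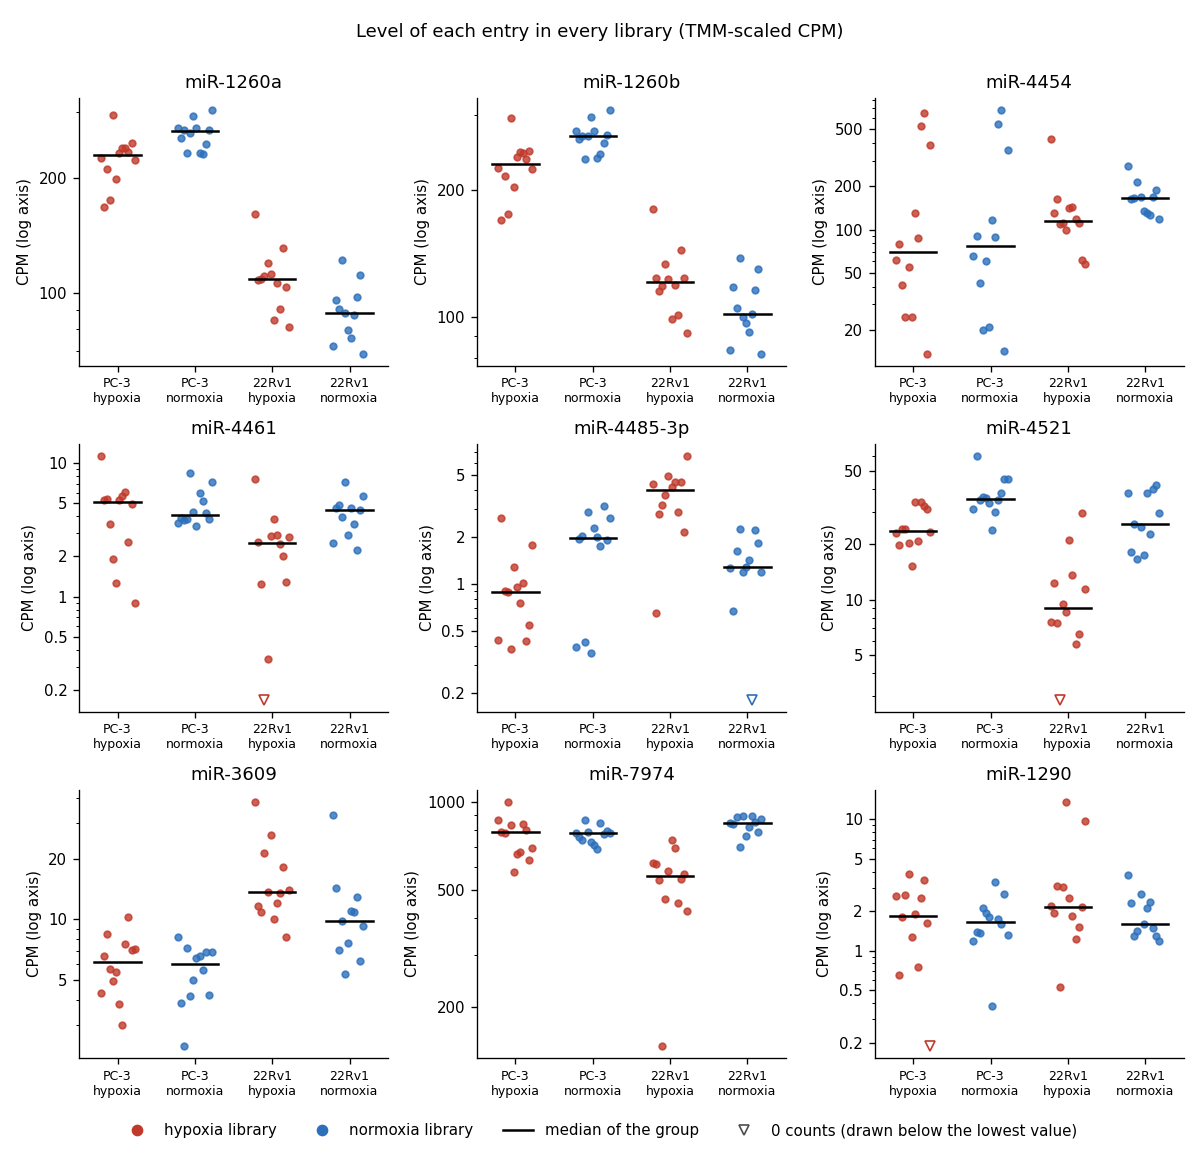
Level of each of the 9 entries in every library as CPM with TMM scaling (edgeR's library scaling factors), on a log axis. Points are libraries, black lines are group medians and open triangles are libraries with 0 counts. Hypoxia and normoxia libraries overlap in every panel and line, and miR-4454 spreads over 13.6 to 682 CPM in PC-3.

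Averaged over the 6 O2 levels, 3 of the 7 entries tested in PC-3 fell in hypoxia and 0 rose. Those that fell were miR-1260a, miR-1260b and miR-4521. The first 2 had nearly equal counts in PC-3 (Pearson r = 0.996), so their calls are not independent. Over all entries of the line, 51 of 463 were called (11.0%), with 24 lower (5.18%) and 27 higher (5.83%). In 22Rv1, 2 of the 9 entries tested rose (miR-1260a and miR-4485-3p) and 3 fell (miR-4461, miR-4521 and miR-7974). Over all entries of 22Rv1, 75 of 552 were called (13.6%), with 42 higher (7.61%) and 33 lower (5.98%). A call is an adjusted p below 0.05 in edgeR's quasi-likelihood test. With a replicate block in the fit, the 9 entries of 22Rv1 held 4 calls in each direction, at a background of 164 of 552 (29.7%), with 15.9% higher and 13.8% lower. In PC-3 the same 3 entries fell with the block, where 109 of 463 were called (23.5%), with 12.5% lower. The median effect of the entries tested was log2 -0.21 in PC-3 and log2 0.21 in 22Rv1, against -0.00 and 0.01 over all entries tested. The medians of the 7 and 9 entries are the values of miR-1260a in PC-3 and of miR-1260b in 22Rv1. The 22Rv1 counts include the 3 entries whose passing the filter depended on the condition.

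**Figure D2:**
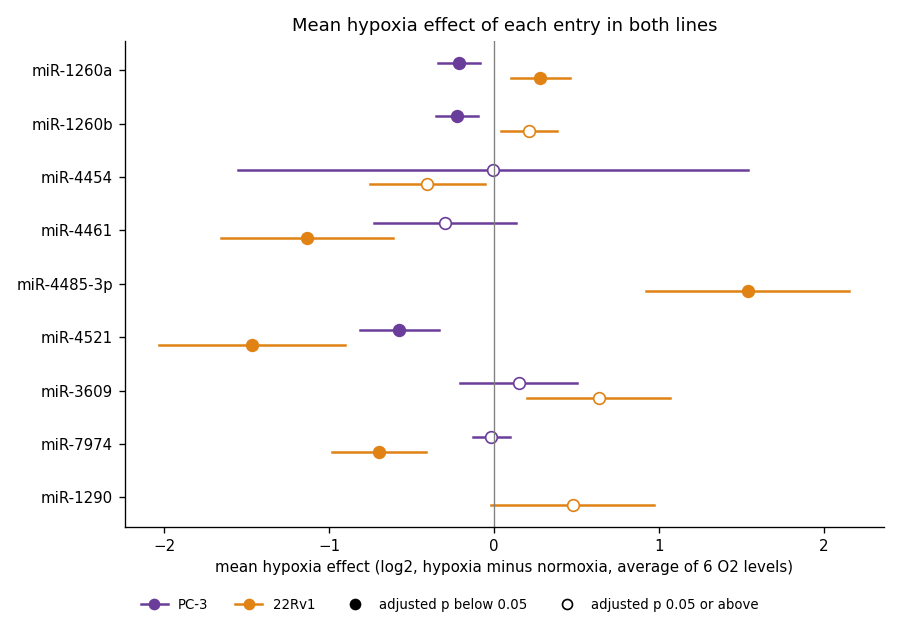
Mean hypoxia effect of each entry (log2, hypoxia minus normoxia, average of 6 O2 levels) with its 95% confidence interval, PC-3 above 22Rv1. Filled points passed the test. miR-1260a lies below 0 in PC-3 (log2 -0.21) and above it in 22Rv1 (log2 0.28), and miR-4521 lies below 0 in both. miR-4485-3p and miR-1290 were not tested in PC-3.

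The entries that resemble leucine tRNA ends had mean effects of opposite sign in the lines. In 22Rv1 only that of miR-1260a was called without the block. In PC-3, miR-1260a had 168 to 293 CPM (median 230.1) in the 12 hypoxia libraries and 231 to 303 CPM (median 266) in the 12 normoxia libraries. The groups overlapped, and the hypoxia library was lower in 9 of 12 pairs. The fall was log2 -0.21 (standard error 0.064, adjusted p = 0.0310). In 22Rv1, miR-1260a had 81.4 to 161 CPM (median 108) in the 12 hypoxia libraries and 69.1 to 122 CPM (median 88.4) in the 11 normoxia libraries. These groups overlapped as well, and the hypoxia library was higher in 9 of 11 pairs. The rise was log2 0.28 (standard error 0.091, adjusted p = 0.0428).

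miR-1260b followed miR-1260a closely. In PC-3 it had 169 to 296 CPM (median 230.2) in hypoxia and 236 to 308 CPM (median 268) in normoxia, lower in 9 of 12 pairs. It fell by 0.23 on the log2 scale (standard error 0.065, adjusted p = 0.0246). In 22Rv1 it had 91.8 to 180.3 CPM (median 121) in hypoxia and 81.9 to 138 CPM (median 102) in normoxia. The difference there, log2 0.21, missed the threshold (adjusted p = 0.120) and passed it with the replicate block (log2 0.20, adjusted p = 0.0458).

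The calls of these small effects depended on the libraries, while the effects kept their sign. Over omissions of 1 library, miR-1260a ran from log2 -0.26 to -0.18 in PC-3 and from 0.20 to 0.33 in 22Rv1. miR-1260b ran from log2 -0.28 to -0.19 in PC-3. The PC-3 call of miR-1260a was kept in 8 of 9 alternatives and in 10 of 24 omissions of 1 library (adjusted p up to 0.0773). It was lost on leaving out the replicate 1 libraries at 0, 0.5, 1, 2 or 5% O2, the replicate 1 controls of 0, 1, 2 or 5%, replicate 2 at 0.2%, or the replicate 2 controls of 0, 0.2, 0.5 or 5%. The PC-3 call of miR-1260b was kept in 8 of 9 alternatives and in 19 of 24 omissions (adjusted p up to 0.0568). It was lost without replicate 1 at 0.5% O2, replicate 2 at 0.2%, the replicate 1 controls of 1 or 2%, or the replicate 2 control of 0.5%. The 22Rv1 call of miR-1260a was kept in 2 of 9 alternatives (adjusted p 0.00864 to 0.290) and in 4 of 23 omissions, those of replicate 2 at 0, 0.2, 1 or 5% O2. Without the libraries that stood apart, the effect was log2 -0.21 in PC-3 (adjusted p = 0.0766) and log2 0.20 in 22Rv1 (adjusted p = 0.0935) for miR-1260a.

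The counts of miR-1260a and miR-1260b were nearly equal in PC-3. The ratio of miR-1260b to miR-1260a ran from 0.992 to 1.02 in PC-3 hypoxia and from 0.997 to 1.05 in PC-3 normoxia. In 22Rv1 it ran from 1.06 to 1.20 in hypoxia and from 1.13 to 1.23 in normoxia, so every 22Rv1 ratio was above every PC-3 ratio. Their log2 CPM correlated with Pearson r = 0.996 over 24 PC-3 libraries and 0.983 over 23 22Rv1 libraries. How the authors' counting treats reads that fit both entries is not given in the sources used here. Reads could be counted for both, so the 2 entries are not independent and their separate levels are uncertain. With their counts summed into 1 entry, the effect was log2 -0.22 in PC-3 (adjusted p = 0.0227) and log2 0.24 in 22Rv1 (adjusted p = 0.0745).

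**Figure D3:**
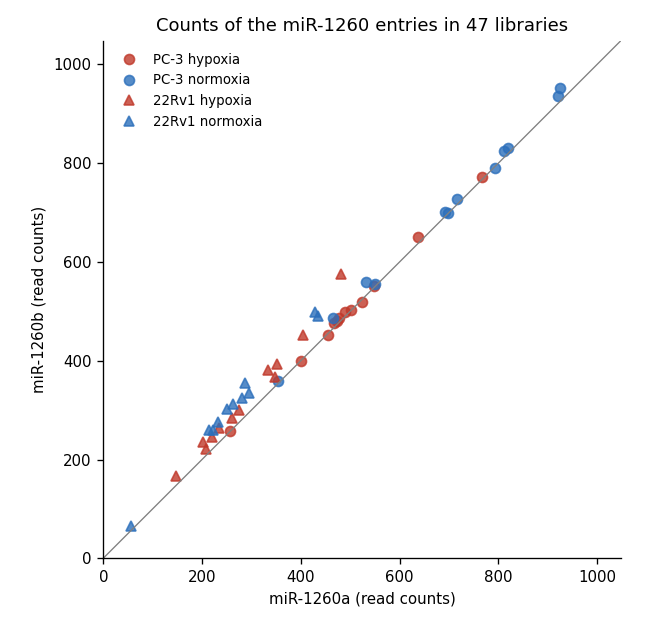
Read counts of miR-1260b against miR-1260a in each of 47 libraries, with the line of equal counts. Circles are PC-3 and triangles are 22Rv1. PC-3 libraries lie on the line (ratio 0.992 to 1.05) and 22Rv1 libraries above it (ratio 1.06 to 1.23).

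miR-4454, the entry that resembles a histidine tRNA end, varied more between pairs of PC-3 libraries than between conditions. It ran from 13.6 to 655 CPM (median 69.9) in PC-3 hypoxia and from 14.2 to 682 CPM (median 77.3) in PC-3 normoxia, a 50.0-fold range over the line. The highest pairs were replicate 2 at 0.5% O2 (655 CPM in hypoxia and 682 in its control), at 1% O2 (529 and 545) and at 0% O2 (388 and 358). The lowest was replicate 2 at 0.2% O2, with 25 counts in hypoxia and 37 in its control. Within the 12 pairs the fold of hypoxia over normoxia stayed between 0.870 and 1.23. The mean effect was log2 -0.01 with a standard error of 0.79 without the block (adjusted p = 0.994), and -0.01 with a standard error of 0.053 with it (adjusted p = 0.945). Leaving out 1 library moved the first value between -0.65 (without replicate 2 at 0.5% O2) and 0.69 (without its control), with no call.

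In 22Rv1, miR-4454 had 57.7 to 427 CPM (median 115) in hypoxia and 118 to 277 CPM (median 167) in normoxia. The hypoxia library was lower in 8 of 11 pairs, and the groups overlapped. The mean effect was log2 -0.41 (standard error 0.18, adjusted p = 0.158). With the block it was log2 -0.37 (standard error 0.075, adjusted p = 0.000653), and without the libraries that stood apart log2 -0.47 (adjusted p = 0.0138). The highest values of the line were those of replicate 1 at 5% O2, 427 CPM in hypoxia and 277 CPM in its control, which are among the libraries that stood apart. Leaving out that hypoxia library gave log2 -0.56. At single levels the block called falls of log2 -0.73 at 0% O2 (adjusted p = 0.00614) and -0.88 at 0.5% (0.000981), which were not called without it.

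**Figure D4:**
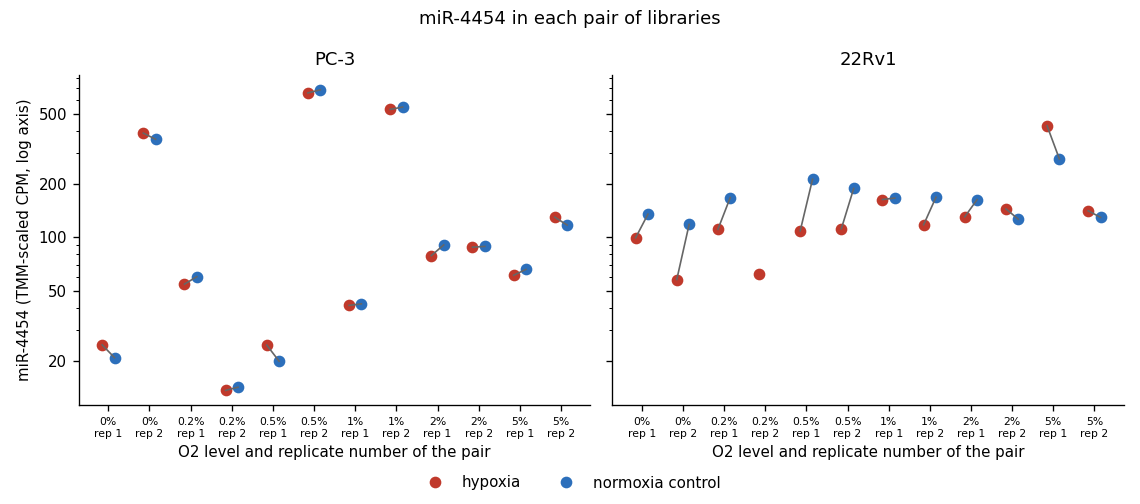
miR-4454 (TMM-scaled CPM, log axis) in each pair of libraries by O2 level and replicate number. Hypoxia is drawn left of its normoxia control, and a line joins the 2 libraries of a pair. Libraries of a PC-3 pair lie close together (fold 0.870 to 1.23) while pairs differ up to 50.0-fold, and replicate 2 at 0.2% O2 in 22Rv1 has no control here.

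miR-4521, the entry next to a serine tRNA gene, fell in both lines. In PC-3 it had 15.3 to 33.9 CPM (median 23.7) in hypoxia and 23.8 to 59.9 CPM (median 35.1) in normoxia. The groups overlapped, and the hypoxia library was lower in 11 of 12 pairs, the exception being replicate 2 at 5% O2. The mean fall was log2 -0.58 (standard error 0.12, adjusted p = 0.00207). In 22Rv1 it had 0 to 29.6 CPM (median 9.06) in hypoxia and 16.6 to 41.8 CPM (median 25.8) in normoxia. The hypoxia library was lower in 11 of 11 pairs. The mean fall was log2 -1.47 (standard error 0.29, adjusted p = 0.00286), a level 0.361 times that of normoxia.

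Both calls of miR-4521 were kept in 9 of 9 alternatives and in every omission of 1 library. In PC-3 the omissions gave log2 -0.63 to -0.47. In 22Rv1 they gave log2 -2.50 to -1.33, with the lowest on leaving out replicate 2 at 0.5% O2. That omission leaves replicate 1 at 0.5% O2 alone, a library with 0 counts of miR-4521 in 2031118, which allows a level of up to 1.6 CPM. That library is among those that stood apart, and without them the effect was log2 -1.26 (adjusted p = 0.00271). At single levels miR-4521 in 22Rv1 had 8.59 and 11.5 CPM at 0% O2 against 17.6 and 29.5 CPM in its controls. At 0.5% O2 it had 0 and 6.55 CPM against 16.6 and 41.8 CPM, and at 1% O2 7.49 and 5.77 CPM against 25.8 and 39.6 CPM. At each of these 3 levels both hypoxia libraries lay below both controls. At 0.2% O2 the hypoxia libraries had 9.53 and 29.6 CPM, on both sides of the control library at 24.8 CPM (log2 -0.26), and the higher of them has no pair. None of the single-level differences of miR-4521 passed the test without the block. With it, falls were called at 0% (log2 -1.21), 0.5% (-3.23) and 1% (-2.18) in 22Rv1 and at 0% (-1.01) and 2% (-1.12) in PC-3.

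The entry that matches mitochondrial 16S ribosomal RNA, miR-4485-3p, rose in 22Rv1. Its counts were 2 to 19 per library (median 9.5) in 22Rv1 hypoxia and 0 to 8 in 22Rv1 normoxia. As CPM these were 0.647 to 6.61 (median 3.97) in hypoxia and 0 to 2.24 (median 1.28) in normoxia. The groups overlapped through replicate 1 at 2% O2 and replicate 2 at 0.2% O2, the 2 lowest hypoxia libraries, and the hypoxia library was higher in 10 of 11 pairs. The mean rise was log2 1.54 (standard error 0.31, adjusted p = 0.00175), kept in 9 of 9 alternatives and 23 of 23 omissions (log2 1.19 to 2.06). The entry was tested only because 4 hypoxia libraries reached 5 CPM, against 0 normoxia libraries, so the test is not independent of the filter. In a fit without the filter the mean rise was log2 1.52 (adjusted p = 0.000773, edgeR). At 0% O2 it had 4.91 and 6.61 CPM against 1.28 and 1.19 CPM in its controls. This difference was log2 2.20 (adjusted p = 0.0490), kept in 2 of 9 alternatives and in 5 of 23 omissions.

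In PC-3, miR-4485-3p had 1 to 4 counts in the 12 hypoxia libraries and 1 to 9 counts in the 12 normoxia libraries, below the filter. The CPM were 0.383 to 2.63 (median 0.887) in hypoxia and 0.360 to 3.18 (median 1.96) in normoxia. The hypoxia library was lower in 8 of 12 pairs. In a fit without the filter the mean effect was log2 -0.99 (standard error 0.38, unadjusted p = 0.0130, adjusted p = 0.162).

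miR-4461, opposite the ND4L pseudogene, was low in both lines and fell in 22Rv1. It had 0 to 7.60 CPM (median 2.53) in 22Rv1 hypoxia and 2.22 to 7.17 CPM (median 4.42) in 22Rv1 normoxia. The hypoxia library was lower in 9 of 11 pairs, and replicate 1 at 5% O2 was the highest library of the line. miR-4461 passed the filter in 22Rv1 through 7 normoxia libraries and 1 hypoxia library, so its test there is not independent of the filter. The mean fall was log2 -1.14 (standard error 0.27, adjusted p = 0.00578), kept in 9 of 9 alternatives and 21 of 23 omissions. It was lost without the control of 0.2% O2 (log2 -0.79, adjusted p = 0.0923) or the replicate 2 control of 5% O2 (log2 -1.02, adjusted p = 0.0663). Without replicate 2 at 0.5% O2 it was log2 -1.90. The fall was called at 0.2% O2, where 0.340 and 1.29 CPM in hypoxia stood against 7.17 CPM in the control library (log2 -2.88, adjusted p = 0.0455, and log2 -4.20 with the block). That control library, with 24 counts, was the highest of the 22Rv1 normoxia libraries, and replicate 1 in hypoxia had 1 count. The call at 0.2% O2 was kept in 6 of 9 alternatives and 6 of 22 omissions.

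In PC-3, miR-4461 had 0.892 to 11.3 CPM (median 5.08) in hypoxia and 3.41 to 8.37 CPM (median 4.05) in normoxia. Its mean effect was not called (log2 -0.30, adjusted p = 0.443), and its single-level effects lay on both sides of 0. They were log2 -2.34 at 0% O2, -0.91 at 0.2% and -0.41 at 0.5%. At the higher levels they were log2 0.38 (1% O2), 0.23 (2% O2) and 1.26 (5% O2). At 0% O2 it had 1.28 and 0.892 CPM against 4.32 and 7.24 CPM in the controls (3 and 2 counts against 12 and 22), a called fall (adjusted p = 0.0398). At 5% O2 it had 11.3 and 5.26 CPM against 3.53 and 3.41 CPM (adjusted p = 0.998). The trend over the 6 ordered levels was log2 -0.63 per step toward lower O2 (standard error 0.13, adjusted p = 0.0307).

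miR-4461 was the 1 entry of 463 with a called trend in PC-3 (0.216%). The trend call was kept in 7 of 9 alternatives and 13 of 24 omissions. It was lost without the PC-3 libraries that stood apart, both at the 5% end of the trend (log2 -0.54 per step, adjusted p = 0.399). Without PC-3 replicate 1 at 5% O2 alone it was log2 -0.54 per step (adjusted p = 0.382). With the block 3 of 463 trends were called (0.648%), that of miR-4461 among them. The call at 0% O2 was kept in 8 of 9 alternatives and 11 of 24 omissions (log2 -2.65 to -1.88). In 22Rv1 the trend of miR-4461 was log2 -0.34 per step (adjusted p = 0.593).

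miR-1290, the entry close to U2 small nuclear RNA, was high in 2 libraries, both 22Rv1 at 0% O2. These had 13.5 and 9.74 CPM against 1.60 and 1.19 CPM in their controls, or 33 and 28 counts against 5 and 4. All other 22Rv1 libraries lay between 0.533 and 3.80 CPM, so the 2 libraries did not overlap with any other. The difference at 0% O2 was log2 3.01 (standard error 0.44, adjusted p = 0.000146). It was kept in 9 of 9 alternatives and in the 21 omissions of other libraries (log2 2.81 to 3.23). Leaving out either of the 2 high libraries took miR-1290 below the filter, so the call was not tested without them. The entry was tested only because these 2 libraries reached 5 CPM, so the test is not independent of the filter. In a fit without the filter the difference at 0% O2 was log2 3.01 (adjusted p = 5.94e-05, edgeR). At 0% O2 in 22Rv1, 26 of 552 entries were called (4.71%). The mean effect over the 6 levels was log2 0.48 (adjusted p = 0.232). In PC-3 miR-1290 had 0 to 3.83 CPM (median 1.85) in hypoxia and 0.378 to 3.31 CPM (median 1.66) in normoxia. At 0% O2 in PC-3 it had 1.28 and 0 CPM against 1.80 and 1.32 CPM in the controls.

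miR-3609, the entry that overlaps SCARNA28, was a low-level entry of both lines. In 22Rv1 it had 8.15 to 38.0 CPM (median 13.6) in hypoxia and 5.38 to 32.9 CPM (median 9.82) in normoxia, with overlap. The hypoxia library was higher in 9 of 11 pairs. The mean effect, log2 0.64 (standard error 0.22), had an adjusted p of 0.0670 without the block and 0.000508 with it (log2 0.68). Without the libraries that stood apart, among them the 2 highest of the line (38.0 and 32.9 CPM), it was log2 0.55 (adjusted p = 0.0382). With the block, rises were called at 0% O2 (log2 1.19, adjusted p = 0.00609) and 0.5% O2 (log2 1.29, adjusted p = 0.00279). The block also called its trend (log2 0.33 per step toward lower O2, adjusted p = 0.0125, against 0.704 without the block) and that of miR-4454 (-0.20, 0.00672 against 0.593). With the block, 17 of 552 trends were called in 22Rv1 (3.08%), 1.99% higher and 1.09% lower. In PC-3 miR-3609 had 3.02 to 10.3 CPM (median 6.14) in hypoxia and 2.37 to 8.23 CPM (median 6.04) in normoxia, with a mean effect of log2 0.15 (adjusted p = 0.707).

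miR-7974 was the most abundant of the 9 and fell in 22Rv1. It had 147 to 741 CPM (median 556) in 22Rv1 hypoxia and 701 to 893 CPM (median 842) in 22Rv1 normoxia. The hypoxia library was lower in 11 of 11 pairs, and only the replicate 2 hypoxia library at 5% O2 (741 CPM) lay above the lowest normoxia library (701 CPM). The lowest library, with 276 counts, was replicate 1 at 0.5% O2. The mean fall was log2 -0.70 (standard error 0.15, adjusted p = 0.00396), a level 0.616 times that of normoxia. It was kept in 9 of 9 alternatives and 23 of 23 omissions, and it was log2 -0.57 without the libraries that stood apart (adjusted p = 0.000104). At 0.5% O2 the difference was log2 -1.17 (adjusted p = 0.0984), and log2 -1.37 with the block (adjusted p = 0.00449). In PC-3 it had 575 to 995 CPM (median 784) in hypoxia and 690.0 to 863 CPM (median 778) in normoxia. It was lower in 6 of 12 PC-3 pairs, with a mean effect of log2 -0.02 (95% confidence interval -0.13 to 0.10).

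At single O2 levels the 9 entries gave few calls without the block. Of 42 tests in PC-3, 1 passed (miR-4461 at 0%), at a background of 30 of 2778 over all entries and levels (1.08%). Of 54 tests in 22Rv1, 3 passed (miR-1290 and miR-4485-3p at 0%, miR-4461 at 0.2%), at a background of 54 of 3312 (1.63%). All 3 calls are of the entries whose passing the filter in 22Rv1 depended on the condition in which they were high. Their number can therefore not be read against that background. The 22Rv1 background was 1.18% higher and 0.453% lower. With the block 5 passed in PC-3, 0 higher and 5 lower, at a background of 4.90% (2.77% higher, 2.12% lower). With the block 11 passed in 22Rv1, 4 higher and 7 lower, at a background of 6.22% (3.68% higher, 2.54% lower). The 11 include the same 3 calls. Besides those named above, the PC-3 calls with the block were miR-1260a and miR-1260b at 0% O2 (log2 -0.47 and -0.48). At 0% O2, miR-1260a had 199 and 223 CPM in PC-3 hypoxia against 292 and 303 CPM in its controls.

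**Figure D5:**
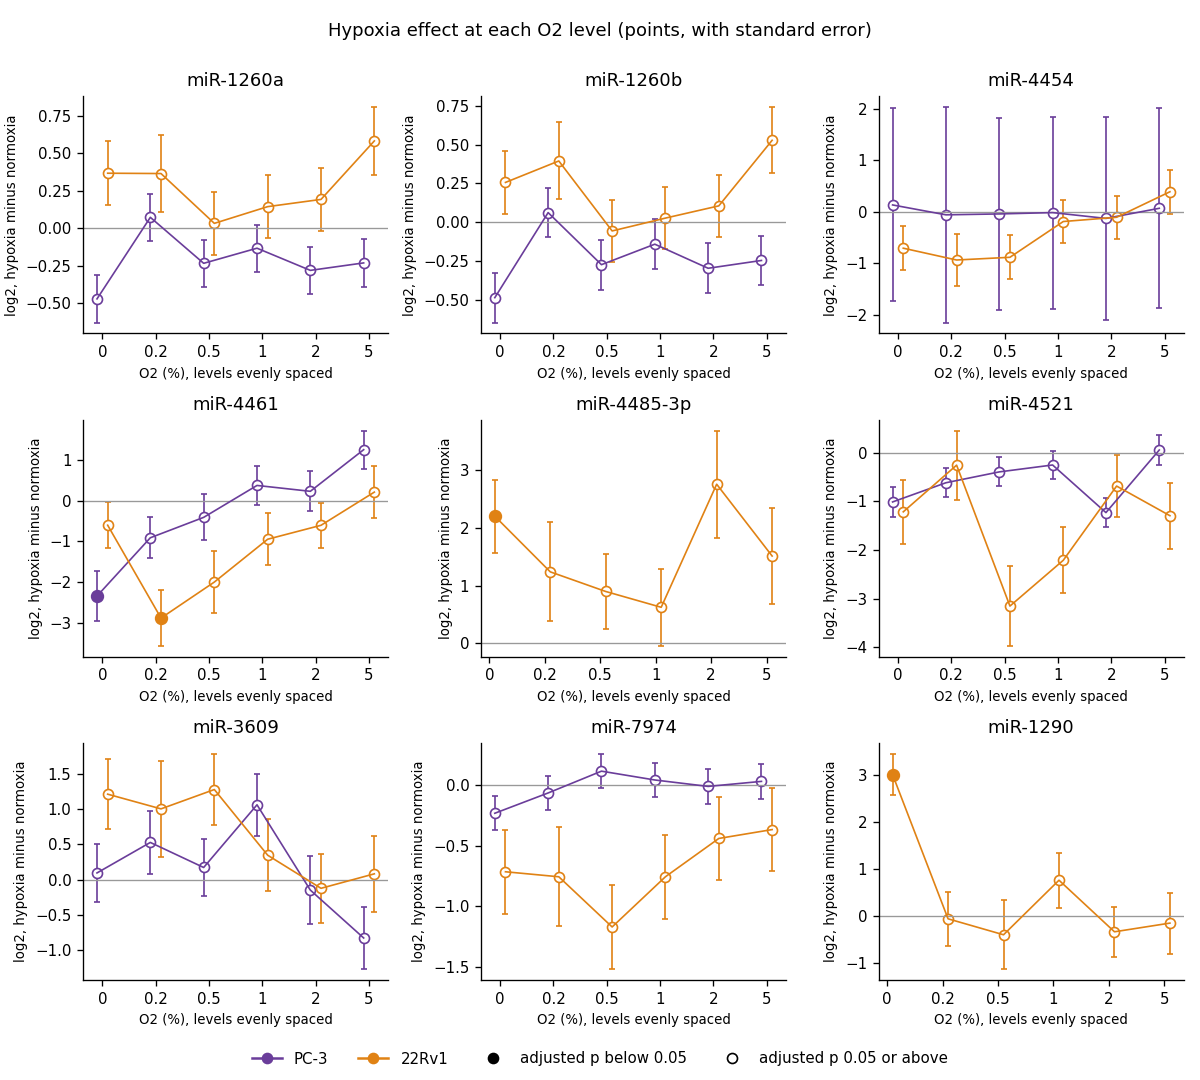
Hypoxia effect (log2, hypoxia minus its own normoxia control) at each O2 level, with standard errors, for PC-3 and 22Rv1. Filled points passed the test without the block. miR-4461 in PC-3 stands at log2 -2.34 at 0% O2 and at 1.26 at 5% O2, and miR-1290 in 22Rv1 stands at log2 3.01 at 0% O2 and between -0.40 and 0.77 at the other levels.

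The normoxia controls of the 6 levels showed no called difference among themselves. In PC-3, 0 of 463 entries were called, with 13 at an unadjusted p below 0.05 and 2 called by DESeq2. In 22Rv1, 0 of 552 were called, with 3 at an unadjusted p below 0.05 and 0 called by DESeq2. None of the 9 entries had an unadjusted p below 0.05 in this test in either line. The lowest was that of miR-1260a in 22Rv1 (unadjusted p = 0.122). The test takes its spread from libraries of the same group, so it can miss differences where these lie far apart. miR-4454 ran from 14.2 to 682 CPM over the PC-3 controls (unadjusted p = 0.617). With the replicate number as a term, 0 entries were called in either line. Unadjusted p was then below 0.05 for 34 entries in PC-3 and 11 in 22Rv1, and 0.0609 for miR-1260a in 22Rv1.

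The mean hypoxia effect differed between the lines for 4 of the 9 entries, at a background of 18 of 613 (2.94%), with 0.489% higher and 2.45% lower. Among these 4, the counts of miR-1260a and miR-1260b are not independent, and miR-4485-3p passed the filter only through 22Rv1 hypoxia libraries. The 4 calls are thus not 4 separate results to set against that share. PC-3 minus 22Rv1, the difference was log2 -0.52 for miR-1260a (standard error 0.12, adjusted p = 0.0108) and log2 -0.46 for miR-1260b (standard error 0.12, adjusted p = 0.0200). It was log2 -2.53 for miR-4485-3p (standard error 0.51, adjusted p = 0.00190) and log2 0.66 for miR-7974 (standard error 0.17, adjusted p = 0.0200). For miR-4521 it was log2 0.87 (adjusted p = 0.134), and log2 1.07 with the block (adjusted p = 0.000103). For miR-4454 it was log2 0.38 (adjusted p = 1.00), and log2 0.35 with the block (adjusted p = 0.0141). With the block, 61 of 613 entries were called (9.95%), with 2.61% higher and 7.34% lower.

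The call of miR-4485-3p was kept in the 8 alternatives, of 9, that gave a result for it, and in 44 of 47 omissions. It was lost without the PC-3 replicate 2 controls of 0% (log2 -2.18), 0.5% (-2.20) or 5% O2 (-2.25), with an adjusted p up to 0.0697. That of miR-1260a was kept in 7 of 9 alternatives and 47 of 47 omissions. That of miR-7974 was kept in 7 of 9 alternatives and 46 of 47 omissions, the exception being 22Rv1 replicate 1 at 5% O2 (adjusted p = 0.0502). The call of miR-1260b was kept in 6 of 9 alternatives and 26 of 47 omissions. Without the libraries that stood apart, the difference was log2 -0.40 for miR-1260a (adjusted p = 0.0879) and log2 -0.34 for miR-1260b (adjusted p = 0.168).

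In normoxia the entries that resemble leucine tRNA ends were higher in PC-3 than in 22Rv1. miR-1260a averaged 262 ± 22.7 CPM in PC-3 (SD, n = 12) and 89.9 ± 16.2 CPM in 22Rv1 (SD, n = 11). The difference was log2 1.56 (adjusted p = 2.04e-18, edgeR). miR-1260b, whose counts are not independent of those of miR-1260a, averaged 266 ± 21.9 CPM in PC-3 and 106 ± 17.9 CPM in 22Rv1 (log2 1.35, adjusted p = 5.99e-17). miR-3609 was lower in PC-3, at 5.64 ± 1.71 CPM against 11.6 ± 7.59 CPM (log2 -0.84, adjusted p = 0.000787). miR-4521 was at 37.2 ± 9.25 CPM in PC-3 and 28.4 ± 9.47 CPM in 22Rv1 (log2 0.43, adjusted p = 0.0423). With scaling by library size alone its difference was log2 -0.04, and the call was kept in 5 of 9 alternatives and 12 of 47 omissions. Of the 9 entries 4 were called, against 527 of 613 over all entries (86.0%), which was 243 higher and 284 lower. With scaling by library size alone the split was 180 higher and 352 lower, and the median over all entries moved by -0.45 on the log2 scale.

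miR-7974 did not differ between the lines in normoxia past the threshold, at 771 ± 50.6 CPM in PC-3 and 831 ± 60.2 CPM in 22Rv1 (log2 -0.12, 95% confidence interval -0.35 to 0.12). miR-4461 (log2 0.06), miR-4485-3p (0.55) and miR-1290 (-0.23) were not called either. With library size alone, miR-7974 (log2 -0.58, adjusted p = 0.000389) and miR-1290 (log2 -0.69, adjusted p = 0.0157) were called lower in PC-3. miR-4454 differed by log2 -0.30 (adjusted p = 0.646). With the replicate number as a term within each line it differed by log2 -0.48 (adjusted p = 0.365), where 531 of 613 entries were called (86.6%). Over the 4 groups of lines and conditions, the mean of miR-1260a stood at 225 CPM in PC-3 hypoxia, 262 CPM in PC-3 normoxia, 109.8 CPM in 22Rv1 hypoxia and 89.9 CPM in 22Rv1 normoxia. Hypoxia and normoxia groups of the same line overlapped.

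Some entries varied together over the libraries of 22Rv1. Over its 23 libraries, log2 CPM of miR-4521 and miR-7974 had Pearson r = 0.907 (Spearman rho 0.769), and those of miR-4461 and miR-7974 r = 0.766 (rho 0.678). In replicate 1 at 0.5% O2, miR-4521 and miR-4461 were at 0 counts and miR-7974 was at its lowest level. Over the 24 PC-3 libraries miR-1260a and miR-4521 had r = 0.509 (rho 0.410). These values describe libraries that share 6 O2 levels and pairs of replicates, and they are not tests.

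Outside the 9 entries, the miRNA most like miR-7974 over the 47 libraries was miR-1268a, after the mean of each line was taken off (r = 0.757, rho 0.631, r = 0.500 without the 2 libraries farthest from the median). The miRNA most like miR-4521 was let-7f-1-3p (r = 0.743, rho 0.705, 0.710 without 2 libraries), and the one most like miR-3609 was miR-183-5p (r = 0.698, rho 0.597, 0.588). For miR-4454 it was miR-30a-5p (r = 0.628), for miR-4461 miR-1285-3p (0.608) and for miR-4485-3p miR-374b-5p (0.540). For miR-1260a and miR-1260b it was miR-101-3p (0.597 and 0.590), and for miR-1290 miR-21-3p (0.564, and 0.239 without 2 libraries). In PC-3 the value was below that in 22Rv1 for all of the 9 except miR-4454. Pearson r was 0.301 in PC-3 and 0.807 in 22Rv1 for miR-7974, and 0.282 in PC-3 and 0.830 in 22Rv1 for miR-3609. It was 0.159 in PC-3 and 0.867 in 22Rv1 for miR-4461, and 0.197 in PC-3 and 0.755 in 22Rv1 for miR-1260a. For miR-4521 it was 0.536 in PC-3 and 0.805 in 22Rv1. For miR-4454 it was 0.687 in PC-3 and 0.394 in 22Rv1. Each was the highest of 329 entries with a mean of at least 20 CPM, so a high value for some entry follows from the search.

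A list of 18 further hairpins that resemble other RNA classes, such as U2 (miR-1246) and small nucleolar RNAs (miR-664a, miR-3651), had 16 entries in the count table. In PC-3, 6 of them were tested and 0 were called, 0 at an unadjusted p below 0.05 and 0 with the block, with a median effect of log2 0.10, where 11.0% of all entries were called. In 22Rv1, 8 were tested and 1 was called, miR-1268a, which fell, where 13.6% of all entries were called. It averaged 43.6 CPM in 22Rv1 hypoxia and 56.3 CPM in 22Rv1 normoxia (log2 -0.40, adjusted p = 0.0428), and the other 7 were not called. With the block miR-1246 rose as well (log2 0.40, adjusted p = 0.00405), at 35.1 CPM in hypoxia and 24.7 CPM in normoxia, which made 2 calls of 8 where 29.7% of all entries were called. At 0% O2 in 22Rv1, where miR-1290 rose, miR-1246 had an effect of log2 1.62 (standard error 0.60, adjusted p = 0.201).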

How the data were processed

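The deposited table of raw counts holds whole-number read counts for 1006 mature miRNA entries in 47 libraries, and the authors' second table holds TMM-normalized CPM, which equal the counts times 1 constant per library (largest relative difference 2.55e-09). The submitters' processing notes name FastQC and hg19, and no source used here gives the aligner or the counting tool. Libraries were made from total RNA with TruSeq Small RNA kits and size-selected on a gel, per the labels' protocols. Depth was 1742290 to 4327382 counts in PC-3 and 960421 to 3181344 in 22Rv1, and entries of a few CPM rest on few counts. CPM in the text use TMM scaling over both lines. Limits for a count of 0 take 3 counts and cover counting error only.

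Counts were tested with edgeR 4.0.16 in R 4.3.3 (robust quasi-likelihood, TMM, 1 mean per group, two-sided, Benjamini-Hochberg over all entries tested), after a filter of at least 5 CPM in at least 2 libraries (463 entries in PC-3, 552 in 22Rv1, 613 over both). The single 22Rv1 control of 0.2% O2 is assumed to vary like other groups. Alternatives were DESeq2 (1.42.0) as test or size factors, the authors' factors, library size alone, scaling without the 9 entries, no filter, the summed miR-1260 entries, omission of each library, and, chosen after seeing the data, omission of the libraries that stood apart. Replicate numbers in the titles paired the libraries. Deviations of same-numbered libraries correlated at the 6 levels of PC-3 (0.301 to 0.665) and at 5 levels of 22Rv1 (0.113 to 0.397), so fits with the pair as a block are given. The 0.2% O2 level of 22Rv1, with 1 control, could not be checked. Each pair lies within 1 line, so for PC-3 against 22Rv1 in normoxia the block is the replicate number as a centred term within each line. In the pair block, 22Rv1 replicate 2 at 0.2% O2 has no partner and adds nothing. Libraries of a group differed by more than counting noise (chi-square per degree of freedom at least 25.6). The code was tested on simulated data. The 9 entries and the lists were chosen with earlier results of these data known. Named beside them are miR-210-3p, line markers, listed entries that were called and the most similar entry for each of the 9. miR-1246 at 0% O2 was added after its values were seen. Positions come from GENCODE 29 (GRCh38) and RefSeq, matched by name, and not from the files' own build.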

Additional observations from a re-analysis of the deposited data

Results flagged for a closer look

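The mean hypoxia effect differed between the lines, by the test of the difference itself, for 4 of the 9 entries, at a background of 18 of 613 entries (2.94%). PC-3 minus 22Rv1, the difference was log2 -0.52 for miR-1260a, log2 -0.46 for miR-1260b, log2 -2.53 for miR-4485-3p and log2 0.66 for miR-7974. miR-1260a had an effect of log2 -0.21 in PC-3 and log2 0.28 in 22Rv1. miR-7974 had an effect of log2 -0.02 in PC-3 and log2 -0.70 in 22Rv1. miR-4485-3p stayed below the filter in PC-3, with 1 to 9 counts per library. It passed the filter only through 22Rv1 hypoxia libraries. The counts of miR-1260a and miR-1260b are not independent, so the 4 calls are not 4 separate results. Without the libraries that stood apart, the differences of miR-1260a and miR-1260b were no longer called (adjusted p = 0.0879 and 0.168, edgeR).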

How the results depend on the processing

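The number of called entries moved with the setting. The replicate block gave 109 in place of 51 for the mean hypoxia effect in PC-3 and 164 in place of 75 for the mean hypoxia effect in 22Rv1. It gave 136 in place of 30 for the single-level hypoxia effects in PC-3, 206 in place of 54 for the single-level hypoxia effects in 22Rv1, 3 and 17 in place of 1 each for the oxygen trend in PC-3 and the oxygen trend in 22Rv1, and 61 in place of 18 for the line difference of the mean hypoxia effect. Library size alone gave 46 for the mean hypoxia effect in 22Rv1 (20 higher, 26 lower), 18 and 21 for the single levels in PC-3 and 22Rv1, 0 for the 22Rv1 trend and 7 for the line difference. It gave 22 higher and 44 lower for the mean effect in PC-3. The authors' factors gave 18 for the PC-3 single levels and 2 and 3 for the trends in PC-3 and 22Rv1. For the 22Rv1 trend, no filter gave 2 and DESeq2 gave 4. For the line difference, scaling without the 9 entries gave 10 and the summed miR-1260 entries gave 11. DESeq2 gave 2 for the normoxia control sets in PC-3. Without the libraries that stood apart the counts were 0 for the PC-3 trend, 2 for the 22Rv1 trend and 9 for the line difference. The causes were not tested.

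Leaving out 1 library gave 12 to 38 and 29 to 76 calls at single levels in PC-3 and 22Rv1, 0 to 3 and 1 to 8 for the trends, 0 to 1 and 0 to 2 for the normoxia control sets, and 9 to 37 for the line difference. miR-4521: PC-3 against 22Rv1 in normoxia turned its sign with library size alone (log2 -0.039 in place of 0.43). The block changed no other call of the 9 entries than those given above. Entries of a few CPM (miR-4461, miR-4485-3p, miR-1290) are limited by depth.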
